A study of Homo sapiens with 2 samples.

Results

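p53 target genes were followed in gastric cancer cells after knockdown of SET7/9, a lysine methyltransferase that methylates histone H3 and also has p53 itself among its known substrates. The 10 genes were CDKN1A, MDM2, GDF15, BBC3, BAX, FAS, SESN1, TP53INP1, TP53I3 and ZMAT3, chosen by name. Every gene probe of the array that carried one of these names was taken, which gave 17 of 34127 probes and 10 of 25940 gene names. MKN74 and MKN45, both established gastric cancer cell lines, were transfected by electroporation with 50 nM SET7/9 siRNA or negative control siRNA. RNA taken after 48 hrs was hybridised to 2 two-colour Agilent arrays, 1 for MKN74 and 1 for MKN45. On both, Cy5 marked the SET7/9 siRNA cells and Cy3 the control cells. No dye swap was made, so dye bias of a probe cannot be told apart from a knockdown response that both arrays share. Which SET7/9 siRNA was used is not stated in the sources used here.

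p53 is a transcription factor that is stabilised by DNA damage and other stress and binds a short palindromic element near its target genes. Its targets stop the cell cycle, start apoptosis, limit metabolic and oxidative stress and, through MDM2, return p53 to a low level.

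The element itself can be read in the promoters of 4 of the 10 genes. RefSeq promoters of GRCh38.p14, from 250 bases before to 50 bases after each transcript start, were held for 9 of the 10 genes in 17 windows and were searched on both strands for the p53 response-element consensus. This consensus is a pair of half-sites of 10 bases, here without a spacer, and the C and the G of each half-site's core were required. A match with at most 3 mismatches, a limit chosen after the matches were seen, stood in 5 of these windows, against 392 of all 35116 windows (1.12%). With at most 2 mismatches it stood in 3 of the 17, against 100 of all windows (0.285%). The genes were chosen as p53 targets, so this comparison is no test. Elements outside the windows were not searched. The matches are shown 5′ to 3′, with the core of each half-site in capitals.
FAS, chr10:88991309-88991328 (+): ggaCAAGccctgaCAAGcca
MDM2, chr12:68808923-68808942 (+): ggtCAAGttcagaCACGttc
SESN1, chr6:109009018-109009037 (-): ggaCAAGtctccaCAAGtca
GDF15, chr19:18386186-18386205 (+): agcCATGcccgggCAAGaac
The FAS and MDM2 matches each had 2 mismatches, and the SESN1 and GDF15 matches each had 3. Relative to the transcript start they lay at position -122 in FAS, -94 in MDM2, -49 in SESN1 and 28 in GDF15, the last being inside the transcribed part. The MDM2 match was read from 2 overlapping windows and is shown once. A match is a description of these letters, and binding of p53 was not measured.

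The probes carry the rest of the reading. ZMAT3, BAX and FAS are shown by their probe letters because the knockdown results turn on them. The first 30 bases of the ZMAT3 probe and of both BAX probes are in lower case. For FAS the capitals mark 30 of the 32 bases that its probes 2 and 3 share, so that these probes are not independent readings. Positions are those of the whole probe of 60 bases on GRCh37.
ZMAT3, chr3:178742161-178742220: attgaattctttttagatctaagtaaaaat
BAX probe 1, chr19:49464454-49464513: ctgcctctggaattgctcaagttcattgat
BAX probe 2, chr19:49464904-49464963: tgccttggactgtgtttttcctccataaat
FAS probe 2, chr10:90774517-90774576: GTCTATCCACAGGCTAACCCCACTCTATGA

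A probe counted as measured in a channel where at least 50% of its spots were well above background, as the scanner software marks it, and was kept where this held for at least 1 channel. No array was repeated, so the error given with a log2 ratio of Cy5 over Cy3 is that of the scanner software's error model for the spot. It covers neither cultures nor transfections. Levels are log2 signals of 1 channel after scaling between arrays, and a level is compared between cell lines at the same probe only. Both samples were epithelial by their markers: EPCAM, CDH1, KRT8, KRT18 and KRT19 were all well above background on both arrays, with log2 control levels over their 8 probes of 9.70 to 17.19 (MKN74) and 9.63 to 16.91 (MKN45). Of 5 markers of other cell types, CD68 and COL1A1 were measured in both channels on both arrays, PTPRC and PECAM1 at 1 probe each in the control channel of MKN45 but at none in that of MKN74, and COL1A2 on neither. SETD7, which encodes SET7/9, had a log2 ratio of -2.03 in MKN74 (error 0.28) and -1.95 in MKN45 (error 0.28) at the probe that lists its RefSeq transcript. Its other probe, which lists none, was at 0.24 (error 0.22) and -0.23 (error 0.21).

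With SET7/9 knocked down, none of the 10 genes moved past 1.5-fold where both channels were measured. This held for 12 probes of 8 genes in MKN74, where log2 ratios ran from -0.54 for ZMAT3 to 0.26 for SESN1. It held for 16 probes of all 10 genes in MKN45, where they ran from -0.24 for BAX to 0.35 for FAS. Over all probes measured in both channels, 2.09% in MKN74 and 2.43% in MKN45 were past 1.5-fold, which is 0.58 on the log2 scale. Over all kept probes, 2 of 14 in MKN74 were past it, both of FAS with Cy3 not well above background, and 0 of 17 in MKN45, beside 5.53% and 6.77% of all kept probes.

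**Figure D1:**
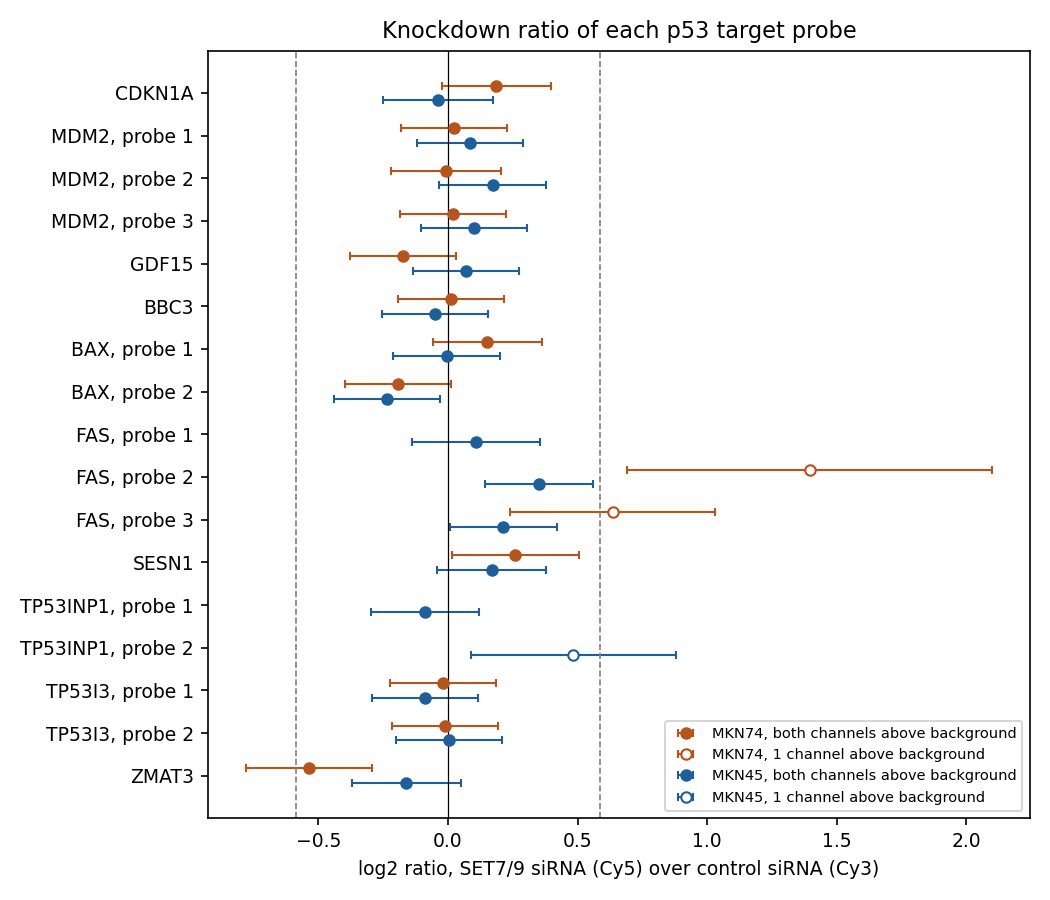
Log2 ratio of SET7/9 siRNA (Cy5) over control siRNA (Cy3) on the x axis for each p53 target probe, with the scanner software's error as bars, MKN74 in orange and MKN45 in blue. Open points have 1 channel well above background, dashed lines mark 1.5-fold, and only the open FAS points of MKN74, at 1.40 and 0.64, lie beyond them.

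MDM2, the ubiquitin ligase that degrades p53 and is itself a p53 target, was read by 3 probes. In MKN74 its log2 ratios were 0.02, -0.01 and 0.02 (errors 0.20 to 0.21), and in MKN45 they were 0.09, 0.17 and 0.10 (errors 0.20 to 0.21). All of these lie within their own errors. The second probe was printed 10 times, and its spots ran from -0.16 through a median of -0.01 to 0.17 in MKN74. In MKN45 they ran from 0.01 through 0.15 to 0.34, so that the spots of the 2 arrays overlapped.

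CDKN1A encodes p21, the cyclin-dependent kinase inhibitor by which p53 stops the cell cycle. Its log2 control level was 6.98 and its knockdown level 7.16 in MKN74, and these were 6.64 and 6.60 in MKN45. The log2 ratio of CDKN1A was 0.19 in MKN74 (error 0.21) and -0.04 in MKN45 (error 0.21), neither beyond its error. GDF15, a secreted member of the TGF-beta family that p53 and other stress pathways induce, was bright in all channels. Its log2 levels were 17.32 and 17.15 in MKN74 and 16.98 and 17.05 in MKN45, control before knockdown. Its log2 ratio was -0.17 in MKN74 (error 0.20) and 0.07 in MKN45 (error 0.20).

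Among the genes of apoptosis, BBC3, which encodes PUMA, a BH3-only protein that frees BAX and BAK, stood at a log2 ratio of 0.01 in MKN74 (error 0.20) and -0.05 in MKN45 (error 0.20). BAX, the protein that permeabilises the outer mitochondrial membrane, was read by 2 probes that list different RefSeq transcripts. Probe 1 was at 0.15 in MKN74 (error 0.21) and -0.01 in MKN45 (error 0.21). Probe 2 was at -0.19 (error 0.20) and -0.24 (error 0.21). All 10 spots of probe 2 were below 0 on both arrays, between -0.23 and -0.10 for MKN74 and between -0.26 and -0.17 for MKN45. The shift thus stood clear of the spread between spots, with an SD of 0.04 and 0.03, and was about as large as the scanner software's error. These are spots of 1 hybridisation per line, and dye bias of the probe cannot be told apart from a knockdown response.

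TP53I3, also called PIG3, is a quinone oxidoreductase linked to oxidative stress in p53-dependent apoptosis. Its probes were at -0.02 and -0.01 in MKN74 (errors 0.20) and at -0.09 and 0.00 in MKN45 (errors 0.20). TP53INP1, a stress-induced nuclear protein that acts with p53 in cell death and autophagy, was well above background in neither channel of MKN74 at either probe, so that it has no ratio there. In MKN45 probe 1 was at -0.09 (error 0.21). Probe 2 was at 0.48 (error 0.39). Its Cy3 signal was not well above background on its 1 spot, so that only a bound of 1.33-fold higher against the dimmest measurable signal can be given. That bound leaves out the error of the ratio and is open to dye bias. With normexp correction and loess the log2 ratio of probe 2 was 0.06, and the deposited log2 ratios hold no value for it.

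FAS, the death receptor of the extrinsic apoptosis pathway, was read by 3 probes. In MKN45 its log2 ratios were 0.11 (error 0.25), 0.35 (error 0.21) and 0.21 (error 0.21). All lie above 0, that of probe 2 beyond its error and that of probe 3 at about the size of its error. In MKN74 probe 1 was above background in neither channel. Probe 2 read 1.40 (error 0.70) on 1 spot whose Cy3 signal was not well above background, so that it was at least 1.04-fold higher against the dimmest measurable signal, a bound across dyes that is open to dye bias since no dye swap was made. Probe 3 read 0.64 (error 0.40) over 10 spots, all above background in Cy5 and 4 of them in Cy3. Over the 4 spots measured in both channels its log2 ratio was 0.22 with an SD of 0.17. The deposited log2 ratios hold the same 0.22. These 4 spots had the lowest ratios of the 10, from -0.04 to 0.33, so that this mean is of a selected part. In MKN45 the same probe was at 0.21 over all 10 spots. All 10 spots in MKN74 ran from -0.04 through a median of 0.67 to 1.43, with an SD of 0.43, and 6 of 10 were past 1.5-fold. In MKN45, where all 10 spots were above background in both channels, they ran from -0.01 through 0.26 to 0.33 with an SD of 0.11. The FAS ratios of MKN74 depended on the background correction: after normexp correction and loess normalization both stood at 0.20. The SETD7 probe shrank in the same run: -2.03 became -1.36 on the MKN74 array, and -1.95 became -0.99 on the MKN45 array. Smaller ratios in that run are therefore not particular to FAS. How much of the FAS change came from the offset of 50 used in normexp was not tested.

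SESN1, a stress-induced regulator of the antioxidant and mTORC1 pathways, was at a log2 ratio of 0.26 in MKN74 (error 0.24) and 0.17 in MKN45 (error 0.21). Its ratio lay above 0 on both arrays, in MKN74 just beyond its error and in MKN45 within it. Each value is of 1 spot, with the dyes placed alike.

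ZMAT3, also called WIG1, a zinc finger protein that binds RNA, had the lowest ratio of the 10 genes in MKN74. Its log2 level was 6.21 with control siRNA and 5.68 with SET7/9 siRNA, a log2 ratio of -0.54 (error 0.24) and the only one of the 12 probes measured in both channels of MKN74 that was beyond 2 errors. Over its 10 spots the ratio ran from -0.80 through a median of -0.51 to -0.34, with an SD of 0.13, and 3 spots were past 1.5-fold. In MKN45 the levels were 7.01 and 6.85 and the log2 ratio was -0.16 (error 0.21). The 7 spots used there, 3 being outliers, ran from -0.23 through -0.14 to -0.05. Every ZMAT3 spot used was below 0 on both arrays, and the used spots of the 2 arrays did not overlap. Here too the spots are of 1 hybridisation per line, with the dyes placed alike. Of the 20674 kept probes of MKN74, 444 were at or below ZMAT3, and 6.54% were at least as far from 0 in either direction. With normexp correction and loess its ratio was reduced to -0.25 for MKN74 and -0.10 for MKN45. The ratios of the SETD7 probe with a RefSeq transcript shrank in that run as well.

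**Figure D2:**
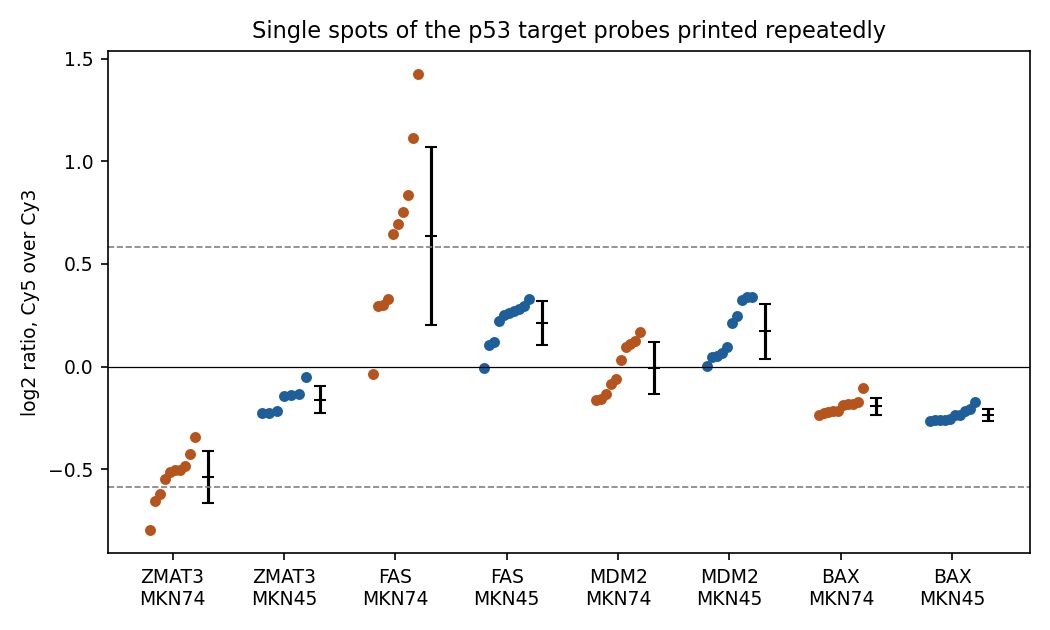
Log2 ratio (y axis) of every used spot of the p53 target probes that were printed repeatedly, by gene and cell line on the x axis, with mean and SD of the spots as black bars and 1.5-fold as dashed lines. ZMAT3 and BAX spots were all below 0 on both arrays, and the FAS spots of MKN74 had the widest spread, an SD of 0.43.

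Taking the brightest kept probe of each gene, the median log2 ratio of the 10 genes was 0.01 over 9 genes in MKN74, with 5 above and 4 below 0. It was -0.04 over 10 genes in MKN45, with 4 above and 6 below 0. The medians of all genes were 0.01 and 0.01. The median size of the ratio without its sign was 0.19 in MKN74 and 0.09 in MKN45 for the 10 genes, beside 0.13 and 0.13 for all genes.

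No p53 target probe passed 1.5-fold the same way in both lines, of 14 kept on both arrays, beside 1.12% of all probes. When the 2 arrays were fitted together in limma, which takes the cell lines as the replicates and leaves 1 residual degree of freedom, none of these 14 probes was called at an adjusted p of 0.05, and 0% of all 19595 probes were. The lowest adjusted p among them was 0.379. The SETD7 probe at -2.03 in MKN74 and -1.95 in MKN45 was not called either, with an adjusted p of 0.255 in limma. The absence of calls among the 14 therefore says little about their response. At an unadjusted p under 0.05 there were 2 of the 14, BAX probe 2 and FAS probe 3, beside 13.1% of all probes. BAX probe 2 had a mean log2 ratio of -0.21 with an SE of 0.07 and an adjusted p of 0.379 in limma, and FAS probe 3 had 0.42 with an SE of 0.13 and the same adjusted p. FAS probe 3 enters that fit with its partly dim MKN74 value.

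The response was compared between the lines at the 12 probes measured in both channels on both arrays. The log2 ratio of MKN45 minus that of MKN74 ran from -0.23 for CDKN1A to 0.38 for ZMAT3. With the errors of both arrays combined, only the ZMAT3 difference exceeded its error, which was 0.32. The ratios had the same sign in both lines at 6 of the 12 probes. With 1 array per line these differences have no test.

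The larger differences lay between the lines themselves, in bulk RNA that cannot tell fewer expressing cells from less RNA per cell. In control cells, SESN1, all 3 FAS probes, 2 of 3 MDM2 probes, 1 of 2 BAX probes and the measured TP53INP1 probe were at least 2-fold higher in MKN45 than in MKN74, and BBC3 was higher in MKN74. In all, 9 of 16 probes measured in Cy3 of at least 1 line differed by 2-fold or more, beside 39.9% of all such probes. Of the 9, 8 probes of 5 genes were higher in MKN45, beside 17.3% of all probes, and 1 was higher in MKN74, beside 22.7%. The lines were not replicated, so no test was made, and the 17 probes share genes and, in FAS, sequence.

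MDM2 had log2 control levels of 8.42, 6.85 and 9.32 at its probes in MKN74 and of 10.07, 7.70 and 10.48 in MKN45. It was thus 3.14-, 1.79- and 2.24-fold higher in MKN45. In cells with SET7/9 siRNA, read in the other dye, the folds were 3.28, 2.03 and 2.37. SESN1 stood at 5.78 in MKN74 and 7.10 in MKN45, 2.49-fold higher in control and 2.34-fold higher in knockdown cells. With normexp and quantile normalization of Cy3 the SESN1 difference was 1.49-fold and no longer past 2-fold. Its promoter and those of MDM2 and FAS hold the matches with the p53 consensus shown above, and so does that of GDF15, which was not higher in MKN45. The window of BAX held no match within the limit, its best having 6 mismatches, and no window was held for TP53INP1. A link between the matches and the levels was not tested.

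FAS had log2 control levels of 5.49, 7.38 and 8.20 in MKN45 and was not well above background at any probe in the control channel of MKN74. Against the dimmest measurable signal it was at least 2.04-, 7.57- and 13.3-fold higher in MKN45. In Cy5, where probes 2 and 3 were measured in both lines, FAS was 9.30- and 10.8-fold higher in MKN45. Probe 3 was measured on 4 of 10 control spots in MKN74. TP53INP1 probe 1 had a log2 control level of 7.32 in MKN45 and was not measurable in MKN74, which makes it at least 7.23-fold higher in control cells and at least 11.7-fold higher in knockdown cells. Its probe 2 was not measured in Cy3 of either line. These bounds depended on the background correction. With normexp and quantile normalization of Cy3 they were 1.19-, 2.04- and 3.15-fold at the FAS probes, of which the first no longer passed 2-fold, and 2.01-fold at TP53INP1 probe 1.

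BAX was at 6.93 and 12.11 in MKN74 and at 8.02 and 12.65 in MKN45, which is 2.12- and 1.45-fold higher in MKN45 at probes 1 and 2. In knockdown cells the folds were 1.90 and 1.41, so that probe 1 fell short of 2-fold in that channel, as it did with normexp and quantile normalization of Cy3, at 1.62-fold. ZMAT3 was 1.74-fold higher in MKN45 in control cells and 2.26-fold in knockdown cells.

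The remaining genes were level or higher in MKN74. BBC3 was at 11.95 in MKN74 and 10.88 in MKN45, 2.10-fold higher in MKN74 in control and 2.19-fold in knockdown cells. TP53I3 was at 10.45 and 9.62 in MKN74 and at 10.00 and 9.14 in MKN45, 1.36- and 1.39-fold higher in MKN74. CDKN1A and GDF15 were 1.26- and 1.26-fold higher in MKN74, and their direction turned when Cy3 was scaled to its 75th percentile, with log2 differences of 0.01 and 0.08. At all 12 probes measured in both channels on both arrays, control and knockdown cells gave the same direction between the lines.

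**Figure D3:**
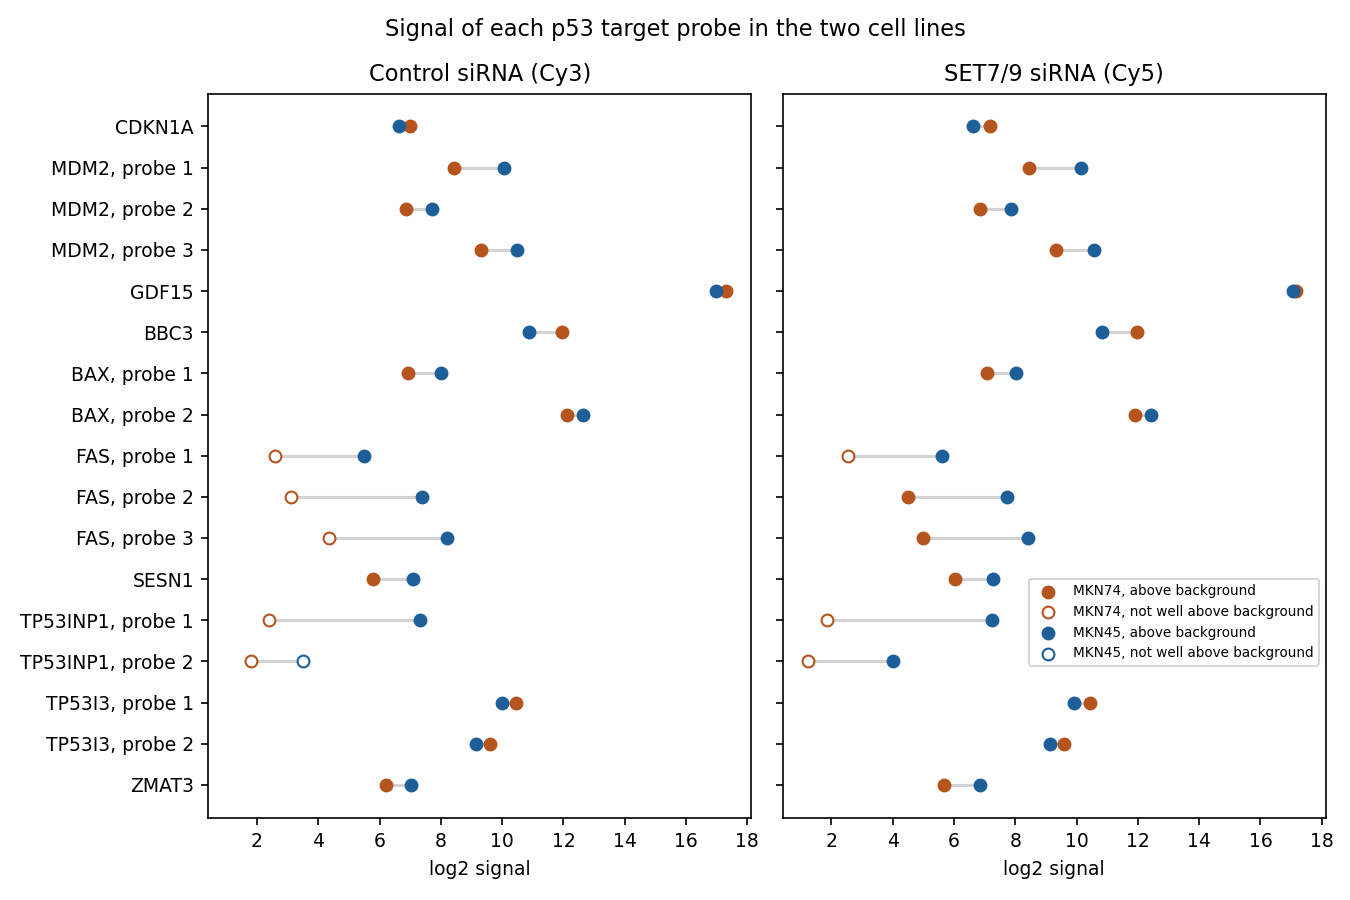
Log2 signal (x axis) of each p53 target probe in control cells (left, Cy3) and SET7/9 siRNA cells (right, Cy5), MKN74 in orange and MKN45 in blue, with open points where the signal was not well above background. FAS and TP53INP1 probes were the farthest apart between the lines in both panels, and BBC3 and TP53I3 were higher in MKN74.

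The scaling between arrays matters for these differences. Over all probes the median log2 control difference, MKN45 minus MKN74, was -0.12 in the scaling used, 0.14 with the 75th percentile and -0.02 with normexp and quantile normalization. Of all probes past 2-fold, 43.3% were higher in MKN45 in the scaling used and 56.3% with the 75th percentile. The median of the 16 p53 target probes was 0.93. Relative to the median of all probes, 11 of the 16 lay on the MKN45 side under each of 4 scalings of Cy3. On that relative scale 8 of 16 were past 2-fold in the scaling used, all of them higher in MKN45, while BBC3 fell short at -0.94. With the 75th percentile 9 were past it and with normexp and quantile normalization 6, each time with BBC3 alone on the MKN74 side, at -1.33 in the former and just past the cutoff in the latter. The share of all probes on the relative scale was not computed. Without the shift to the median, 9, 11 and 6 of the 16 were past 2-fold in these scalings, in the order named. Of all 21610 probes, 8629, 8679 and 4639 were.

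**Figure D4:**
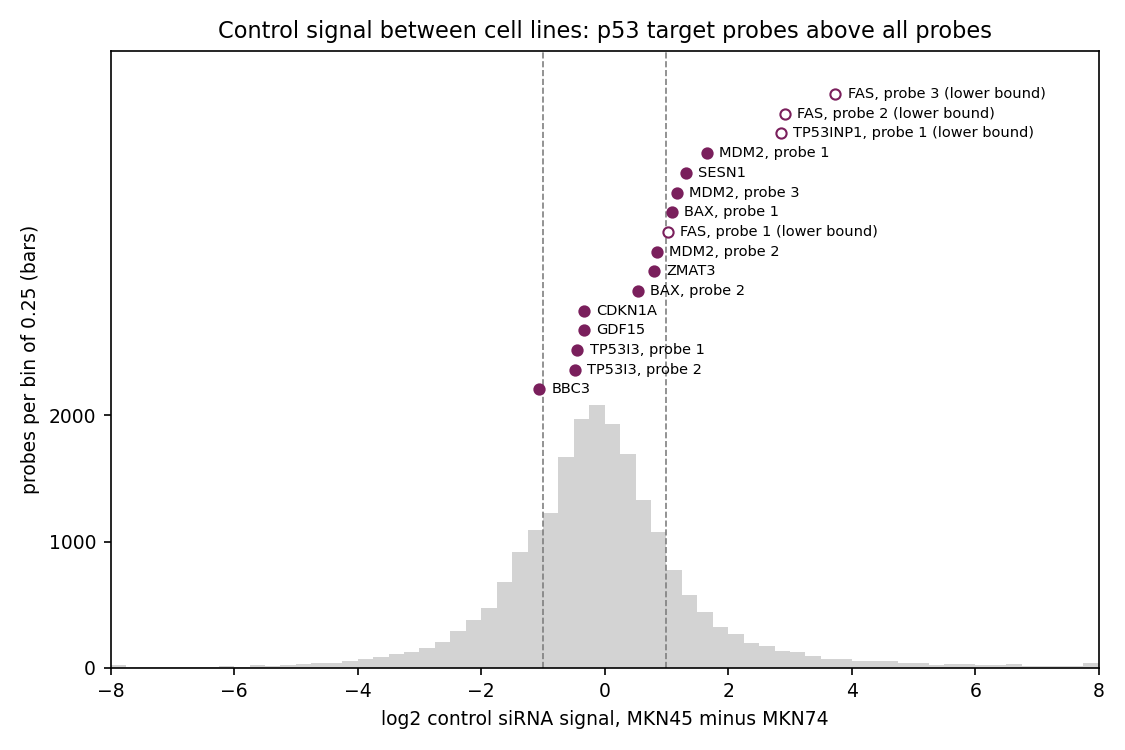
Log2 control signal of MKN45 minus MKN74 (x axis) for all 21610 probes measured in Cy3 of at least 1 line as grey bars (y axis, probes per bin of 0.25), with the 16 p53 target probes as points above them at heights without meaning. Dashed lines mark 2-fold and open points are lower bounds; 8 points lie beyond the line on the MKN45 side and 1 beyond that on the MKN74 side.

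Other genes of the pathway were read from fixed lists. Of 30 other p53 targets, 27 were measured in both channels in MKN74 and 27 in MKN45, and none of the probes so measured was past 1.5-fold on either array. Their median log2 ratios were 0.00 and 0.01 in that order. Of 18 genes that regulate p53 or are related to it, 17 were measured on each array, and SETD7 was the only one past 1.5-fold. The 8 genes that fall when p53 is activated, all of cell division, were measured in full and none was past it, with medians of 0.10 and -0.01. With only 1 channel measured, POLH was past the cutoff on both arrays, ATM in MKN74, and HIPK2 and TP73 in MKN45, all named after their values were seen. Against the dimmest measurable signal their log2 ratios were 0.06 and -0.12 for POLH, -0.14 for ATM, 0.98 for HIPK2 and 0.39 for TP73. With normexp correction and loess they were 0.14, 0.07, -0.07, 0.15 and 0.07 in the same order. Probes of these genes measured in both channels stayed short of the cutoff.

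Between the lines the other targets did not lean to MKN45. Of their 33 probes measured in control cells, 6 were at least 2-fold higher in MKN45 and 7 in MKN74, with a median log2 difference of -0.11. BTG2, an antiproliferative p53 target, stood at 6.97 in MKN74 and 11.12 in MKN45, a log2 difference of 4.15. RPS27L, a ribosomal protein homologue, differed by 1.60 and DDB2, a subunit of the UV damage sensor, by 1.44 and 1.40 at its probes. PLK3, a stress-responsive kinase, was higher in MKN74, at 12.35 against 9.41. Among the regulators, CDKN2A, whose locus encodes p16 and the MDM2 inhibitor ARF, was at 12.02 in MKN74 and 7.82 in MKN45 at the probe measured in both lines. The other CDKN2A probe was at 9.85 in MKN74 and well above background in neither channel of MKN45. RCHY1, a ubiquitin ligase of p53, was at 7.88 and 5.28.

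**Figure D5:**
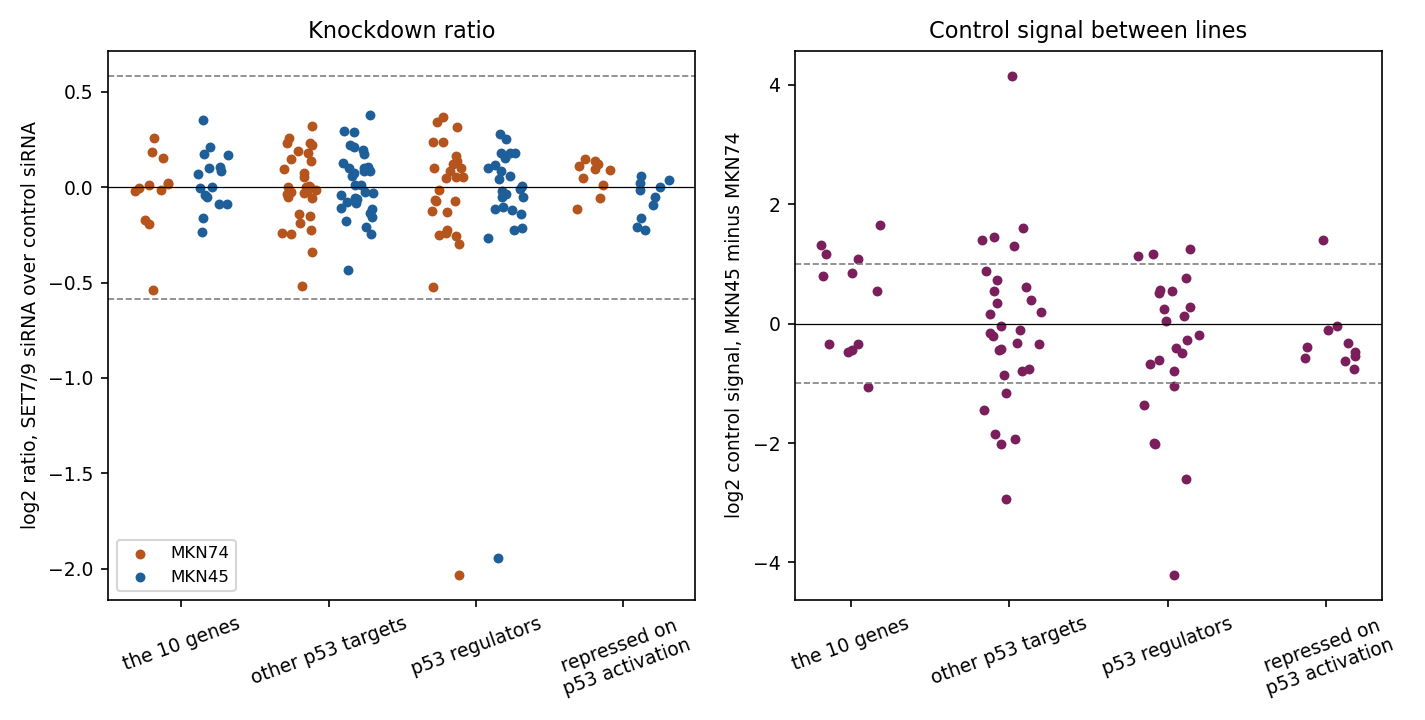
Left, log2 ratio of SET7/9 siRNA over control siRNA (y axis) for probes measured in both channels, by gene list on the x axis, MKN74 in orange and MKN45 in blue, with 1.5-fold dashed. Right, log2 control signal of MKN45 minus MKN74 for probes measured in both lines, with 2-fold dashed. The SETD7 probe, at -2.03 and -1.95, is the only point past 1.5-fold on the left, whereas BTG2 at 4.15 and CDKN2A at -4.20 are the extremes on the right.

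Probes of 1 gene were set against each other where 2 or more were measured in both channels on both arrays. The range of the log2 ratio over the probes was 0.03 in MKN74 and 0.09 in MKN45 for MDM2, 0.01 and 0.09 for TP53I3, and 0.34 and 0.23 for BAX. The medians over all 3105 such genes were 0.15 and 0.16. For the control difference between the lines the range was 0.81 for MDM2, 0.54 for BAX and 0.03 for TP53I3, beside a median of 0.53. The BAX probes thus differed in sign in MKN74, by more than the median gene, and the MDM2 probes gave nearly equal ratios while their level difference between the lines varied more.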

How the data were processed

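Spots were read by the authors with Agilent Feature Extraction 10.7.3.1 (version from the submitters' processing notes), and the deposited spot intensity of each channel had its background subtracted and its dyes normalized within the array. As deposited, each spot also had a log10 ratio of Cy5 over Cy3, a score for the error of that ratio and a p-value, both from the software's error model. A second file deposited by the authors gives log2 ratios to 2 decimals. Probe coordinates are on GRCh37. Ratios were converted from base 10 to base 2, outlier spots were left out and spots of a probe averaged. All 17 probes of the 10 genes listed accessions that matched the RefSeq gene table under the same symbol. Levels were scaled between channels and arrays with Aquantile in limma 3.58.1 (R 4.3.3). For lower bounds, a signal not well above background was replaced by the lowest such measurable signal of its channel and array, unless its own value was higher.

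A response shared by the lines was tested in limma, with Benjamini-Hochberg adjustment over all probes kept on both arrays. With the dyes placed alike on both, such a response includes any dye bias that they share. In simulated data of 19595 probes with 200 changed by 1.5 on the log2 scale and an SD of 0.15, this fit recovered 100% of them with 2.91% false calls. The simulation gave every probe the same SD. In the data the fit called 0 of 19595 probes, not even the SETD7 probe at -2.03 and -1.95. The simulated recovery therefore does not carry over to these arrays. Both arrays shared a slide and a scan. Their number limits the precision.

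The 10 genes and the lists were chosen with earlier results of these data known. Named beside the 10 genes were SETD7, other list genes past 1.5-fold in both channels, and the 3 with the largest control difference in each direction measured on both arrays. A gene of the planned naming rule is not reported here. Alternatives covered background correction, centring, filters, outlier spots, the deposited ratios, cutoffs and the scaling of levels. Normexp correction used an offset of 50. Analyses used Python 3.11.15.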

Additional observations from a re-analysis of the deposited data

How the results depend on the processing

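The count of p53 target probes past 1.5-fold in MKN74 was 2 as reported. With a cutoff of 0.32 on the log2 scale it was 3 of 14, beside 16.3% of all kept probes. It was 0 with normexp and loess, 0 where both channels had to be well above background, 0 in the deposited log2 ratios and 0 with an error model p under 0.01 added. In MKN45 it was 0 under each of these and 2 with the cutoff of 0.32, beside 17.1% of all kept probes. With that cutoff 1 probe, of FAS, passed the same way in both lines, where 4.33% of all probes did. In the joint limma fit 2 of 14 probes were called with normexp and loess, BAX probe 2 (log2 ratio -0.24, adjusted p = 0.035) and FAS probe 2 (0.26, adjusted p = 0.029), whose control signal in MKN74 was not well above background, where 8.72% of all probes were called, and 0 under the other 6 settings. The medians over the genes lay near 0 and changed sign with normexp and loess, to -0.05 in MKN74 and 0.03 in MKN45, and in MKN45 also with the mean of all kept probes of a gene, to 0.01. With both channels required, that of MKN74 was just below 0. Of 181 recomputed values of single probes, 176 stayed within the scanner error, 5 moved beyond it and 0 reversed past the cutoff. Most settings could hardly move a single value, so that the 176 say little: the filters leave it as it is, and centring shifts it by 0.01 on each array. With normexp and loess 4 of 31 values moved, and in the deposited log2 ratios 1 of 29. The knockdown seen at the SETD7 probe was also smaller with normexp and loess, at -1.36 (MKN74) and -0.99 (MKN45). The count past 2-fold between lines ran from 6 to 11 around the 9 reported, the lowest with normexp and quantile normalization. Of all 21610 probes, 4639 were past 2-fold at that lowest, and 8679 with the 75th percentile, which gave the 11. Leaving out an array leaves no residual degree of freedom and was not run. Low signal limits FAS and TP53INP1 in MKN74, where FAS was measured in both channels on 4 spots of probe 3 and TP53INP1 on none.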
